A study of Homo sapiens with 18 samples.

Results

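The genes described here are 53 interferon-stimulated genes and interferon regulatory factors (IRFs), chosen by symbol from a fixed list, of 28395 genes in each RNA-seq table. Of these, 45 had a value of 10 or more in at least 3 libraries and were analysed gene by gene. ATAC-seq peaks within 5 kb were read for all 53. The cells were 3 derivatives of K562, an established human erythroleukemia line that does not express BASP1, a transcriptional corepressor carrying an N-terminal myristoyl lipid. The controls (V-K562) held the vector alone. B-K562 expressed wild-type BASP1 (wtBASP1), and G-K562 expressed BASP1-G2A, which lacks the acceptor glycine and cannot be myristoylated. All 3 were stably transfected and selected with G-418, with 1 line per construct, so an effect of the construct and a difference between lines cannot be told apart. Each line gave 3 RNA-seq and 3 ATAC-seq libraries. The study's methods call them biological triplicates of a line. The p-values therefore measure the spread between samples of 1 line and not between lines.

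Interferons bind cell surface receptors whose JAK kinases phosphorylate STAT proteins. With IRF9, these form a complex that binds the interferon-stimulated response element in target promoters, and IRF1 and IRF7 bind related sequences. The induced proteins sense foreign RNA (DDX58, also called RIG-I, and IFIH1, also called MDA5), attach or remove the ubiquitin-like ISG15, degrade or edit nucleic acids, block viral entry and change the proteasome that makes peptides for antigen presentation. Many of these genes also keep a low level without added interferon.

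The core of that response element (GAAA, any 2 bases, then GAAA) was searched on both strands in RefSeq promoter windows (GRCh38.p14) running from 250 bases before to 50 bases after each gene start. Of the 42 members with a window, 25 held the core, or 59.5%, against 4.38% of the 27305 genes with a window and 4.05% of the 11900 genes with a window that were tested in RNA-seq. The 250 bases before the start are shown for 6 members that carry the later results. IFIH1 (chr2:162318685-162318934, minus strand) and OAS3 (chr12:112938224-112938473, plus strand) are the 2 members whose region at the outermost annotated gene start was called at 2-fold or more in accessibility. IFI27 (chr14:94110486-94110735, plus strand) and LGALS3BP (chr17:78979924-78980173, minus strand) differed strongly in RNA between the BASP1 lines. ISG15 (chr1:1013247-1013496, plus strand) and IRF1 (chr5:132490774-132491023, minus strand) are the contrasting cases described below. Each is written 5′ to 3′ on the gene's strand and ends at the base before the start. Capitals mark matches to the core or to its reverse complement, and overlapping matches run together.
IFIH1: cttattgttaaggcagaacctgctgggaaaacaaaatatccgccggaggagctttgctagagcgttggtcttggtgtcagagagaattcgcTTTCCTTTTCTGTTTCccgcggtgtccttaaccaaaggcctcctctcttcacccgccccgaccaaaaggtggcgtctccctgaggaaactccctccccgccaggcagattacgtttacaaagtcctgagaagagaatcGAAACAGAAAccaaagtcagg
OAS3: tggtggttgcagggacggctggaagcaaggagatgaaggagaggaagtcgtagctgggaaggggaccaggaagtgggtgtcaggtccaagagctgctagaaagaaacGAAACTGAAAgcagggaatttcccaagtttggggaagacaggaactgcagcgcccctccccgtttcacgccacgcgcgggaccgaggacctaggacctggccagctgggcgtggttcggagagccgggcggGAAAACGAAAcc
IFI27: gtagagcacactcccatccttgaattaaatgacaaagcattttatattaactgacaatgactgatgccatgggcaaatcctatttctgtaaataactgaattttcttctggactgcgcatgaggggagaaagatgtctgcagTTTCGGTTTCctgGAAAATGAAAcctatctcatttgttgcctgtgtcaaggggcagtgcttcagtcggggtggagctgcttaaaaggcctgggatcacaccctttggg
LGALS3BP: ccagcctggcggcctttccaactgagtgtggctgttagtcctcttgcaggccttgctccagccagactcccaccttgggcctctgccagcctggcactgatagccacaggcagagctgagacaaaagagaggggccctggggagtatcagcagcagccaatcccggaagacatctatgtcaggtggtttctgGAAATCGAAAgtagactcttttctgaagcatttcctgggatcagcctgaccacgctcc
ISG15: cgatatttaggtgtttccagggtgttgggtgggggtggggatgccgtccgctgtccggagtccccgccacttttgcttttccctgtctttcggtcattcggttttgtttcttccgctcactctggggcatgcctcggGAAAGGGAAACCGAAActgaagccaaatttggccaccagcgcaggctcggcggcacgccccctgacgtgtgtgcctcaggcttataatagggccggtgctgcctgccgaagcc
IRF1: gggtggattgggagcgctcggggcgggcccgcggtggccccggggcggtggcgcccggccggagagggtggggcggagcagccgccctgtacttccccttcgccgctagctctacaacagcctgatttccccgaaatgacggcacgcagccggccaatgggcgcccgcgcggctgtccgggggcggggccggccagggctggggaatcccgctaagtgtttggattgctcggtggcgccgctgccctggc
The IRF1 window held no match, and the other 5 held between 1 and 3 in these 250 bases. A match is a description of letters and not a binding site.

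The RNA-seq values are read counts divided by the size factors of their table and rounded, so their totals, between 32074895 and 33138341 per library, are not sequencing depth. V-K562 libraries stand in both tables, with values 1.02 times as high in the table shared with G-K562, and V-K562 values are given here as in the table shared with B-K562. BASP1 lay between 5 and 7 in the control, between 6189 and 6849 in B-K562, and between 8124 and 12538 in G-K562. Erythroid markers of K562 were high in all lines, but they summed to at least 228553 in each B-K562 library, to between 135982 and 152205 in V-K562, and to at most 90386 in G-K562. HBG1, HBG2, HBE1 and HBZ fell in G-K562 and HBZ rose in B-K562, both against V-K562. Markers of other blood cells summed to 84 to 189 per library, with MS4A1 at 0 throughout. The 3 fibroblast markers summed, per library, to 927 or more in the controls, at most 810 in B-K562 and at most 869 in G-K562, most of it COL1A1, which was lower in B-K562 (589 to 685) than in V-K562 (909 to 1271). DCN (64) and LUM (61) were highest in B-K562 replicate 1, against at most 19 and 4 in the other libraries. The part of these markers in the results below was not tested. In cultures, fewer expressing cells and less RNA per cell cannot be told apart.

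V-K562 replicate 1 stood apart from the other control libraries in interferon-stimulated genes. A value of 10 or more and over 3 times both other libraries of the line was found there for 6 members, against 0.664% of the 15504 genes with such a level in V-K562, and for no member in any other library. These were IFI44 (13, 0 and 0 in replicates 1 to 3), IFI44L (27, 0 and 0), OAS1 (49, 2 and 1), OAS2 (64, 1 and 2), OASL (23, 3 and 2) and MX1 (81, 11 and 16). Of the 6, MX1 alone passed the filter on low values. The 8 members that were not analysed (IFI44, IFI44L, OAS1, OAS2, OASL, HERC5, IRF5 and IRF8) summed to 187 in that library and to 5 to 20 in each of the other 8. IFIT1 (49, 23 and 15) and IFI27 (243, 98 and 94) were also highest there, so the counts of calls against V-K562 are given with and without this library, as are values of IFIT1, IFI6, IFI27 and XAF1.

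**Figure D1:**
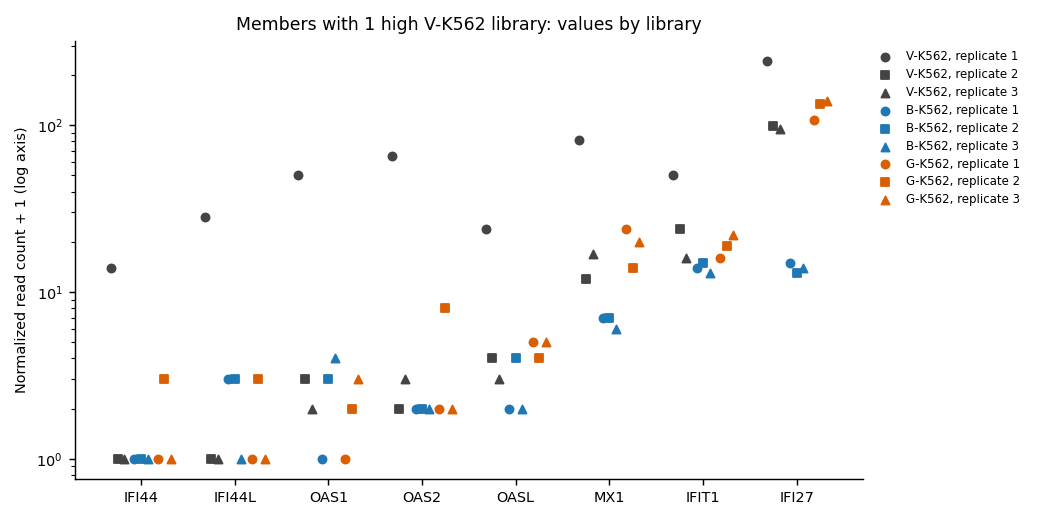
Normalized RNA-seq values (plus 1, log axis) of 8 members by library, with colour for the line and marker shape for the replicate number. OAS2 stands at 64 in V-K562 replicate 1 and at 7 or less in the other 8 libraries, whereas IFI27 is lowest in all 3 B-K562 libraries.

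B-K562 was compared with V-K562 to see how these genes stand when wild-type BASP1 is expressed. Interferon-stimulated genes were lower in B-K562: of the 44 members tested, 17 fell and 0 rose at an adjusted p of at most 0.05 and a change of at least 2-fold (limma, Benjamini-Hochberg adjustment over 14958 genes). Over all genes tested, 14.1% fell and 6.46% rose. The median log2 fold change of the members was −0.61, against 0.01 over all genes, and 36 of the 44 values were negative. At an unadjusted p under 0.05 limma gave 5 members as higher in B-K562, none of them by 2-fold. The 3 B-K562 values lay below all 3 V-K562 values for 31 members and above them for 5, where 38.1% and 39.7% of all genes did so. EPSTI1 and MX1, counted among the 17, passed the filter on low values only through V-K562, so they could be tested only as falls. With 10 or more required in every library, 15 fell. Without V-K562 replicate 1, 42 members could be tested and 15 fell: 14 of the 17 and PARP14. With quantile normalization 9 fell, and IFI16, IFIT2, IRF7, MX1, OAS3, PSMB9, TRIM22, USP18 and XAF1 were no longer called.

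G-K562 cells, compared with V-K562, show which of these differences accompany BASP1 without the lipid. The members went in both directions: of 45 tested, 6 fell and 9 rose, against 10.3% and 8.81% of the 15271 genes tested, with a median log2 fold change of 0.06 against 0.00 over all genes. Without V-K562 replicate 1, the counts were 5 and 9. EPSTI1 passed the filter on low values only through V-K562, and IFIT5 through G-K562 and V-K562 replicate 1. With 10 or more required in every library, 5 fell and 8 rose. The direct comparison of G-K562 with B-K562, made in 1 fit of all 9 libraries, asks where the 2 BASP1 forms differ. Here 19 members were higher in G-K562 and 3 lower, against 17.4% and 12.5% of 15521 genes, with a median of 0.57 against −0.02. With 10 or more required in every library, 17 were higher and 3 lower. The comparisons with V-K562 share its libraries, so their values are given side by side.

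**Figure D2:**
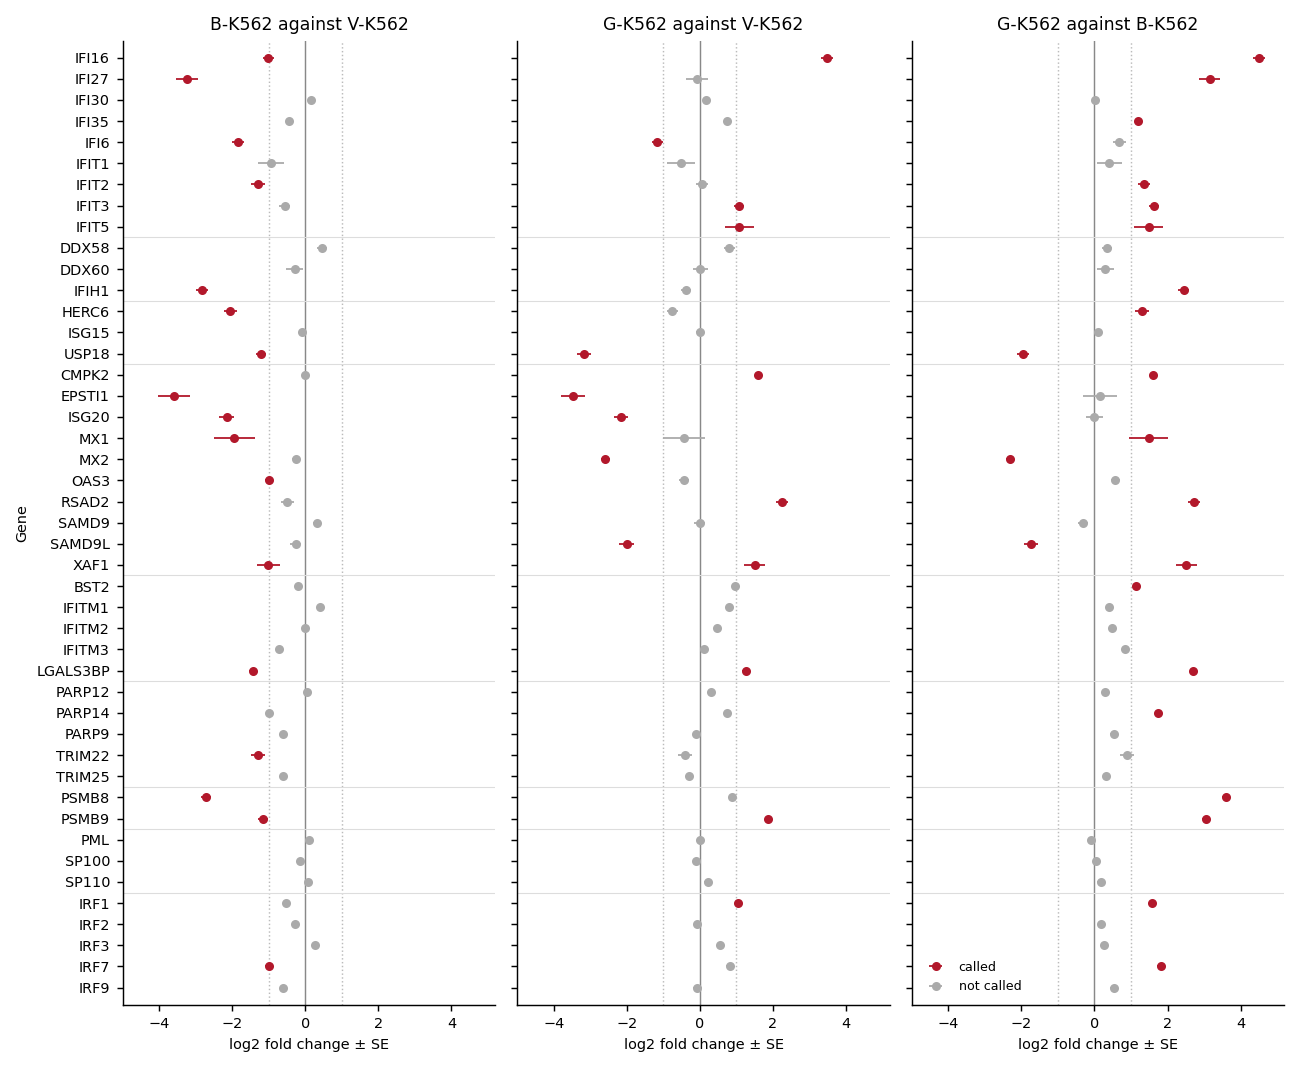
The log2 fold change (horizontal axis, bars ± SE) of each of the 45 analysed members in the 3 comparisons, grouped by role and separated by horizontal lines, with dotted lines at a 2-fold change and red for called genes. The 17 red points of the left panel all lie to the left of 0, the middle panel has 6 on the left and 9 on the right, and the right panel has 3 and 19.

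The members that differed from the control are listed here by pattern of calls. The share of all genes with each joint pattern was not computed, so the counts are a listing only. IFI16, XAF1, LGALS3BP and PSMB9 fell in B-K562 and rose in G-K562. IFI6, ISG20, EPSTI1 and USP18 fell in both. Another 9 (IFIT2, IFI27, IFIH1, MX1, HERC6, IRF7, PSMB8, OAS3 and TRIM22) fell in B-K562 and were not called in G-K562, and 4 (IFIT3, RSAD2, CMPK2 and IRF1) were not called in B-K562 and rose in G-K562. IFIT5, not tested in B-K562 against V-K562, also rose in G-K562. MX2 and SAMD9L fell in G-K562 and were not called in B-K562, and the direct test of G-K562 against B-K562 also gave both as lower. A further 18 members were called in none of the 3 comparisons.

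**Figure D3:**
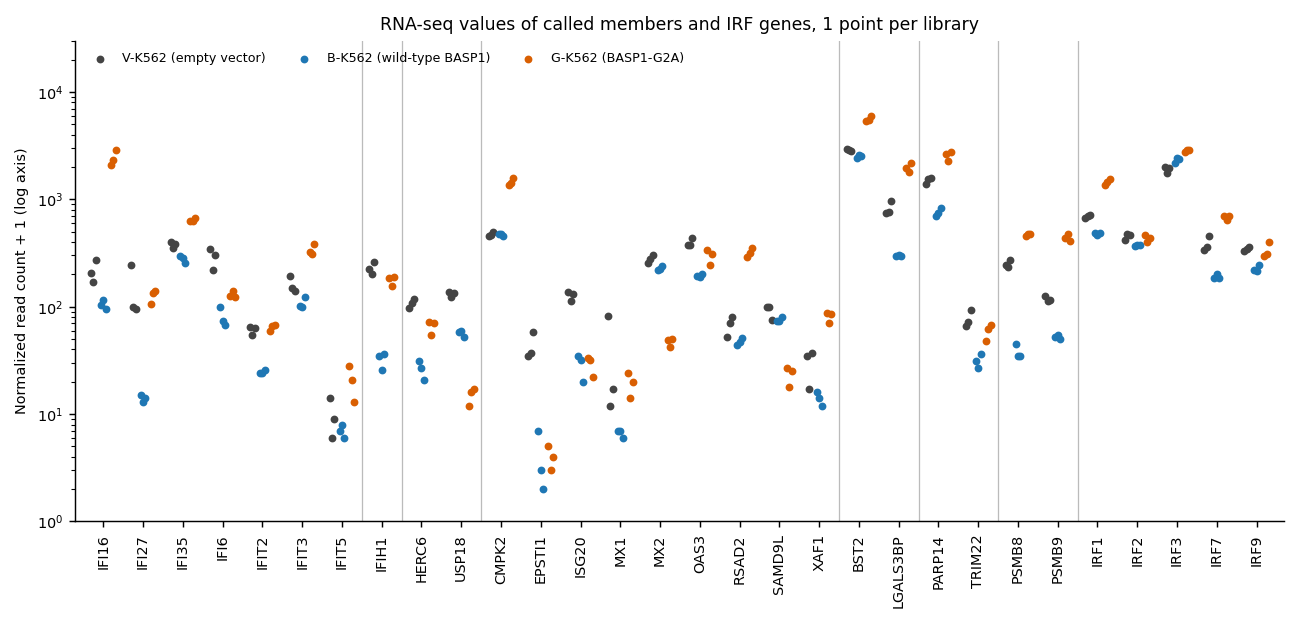
Normalized RNA-seq values (plus 1, log axis) of 30 genes, the 27 members called in at least 1 comparison and the other IRF genes analysed, with 1 point per library and vertical lines between roles. IFI16 stands between 95 and 115 in B-K562, 169 and 273 in V-K562, and 2079 and 2899 in G-K562.

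Among the IFIT and IFI genes, 4 of 8 members tested fell in B-K562 (14.1% of all genes). In G-K562, 1 of 9 fell and 3 rose (10.3% and 8.81% of all genes). IFI16, a nuclear DNA sensor (gene ID 3428, GRCh38 chr1:158999973-159055155), read 204, 169 and 273 in V-K562, 103, 115 and 95 in B-K562, and 2079, 2341 and 2899 in G-K562. The 3 lines did not overlap. It fell in B-K562 (log2 fold change −1.01 ± 0.16 SE, limma adjusted p = 4.37e-05) and rose in G-K562 (3.48 ± 0.16, limma adjusted p = 9.63e-09). The fall lies at the 2-fold limit and was not called without V-K562 replicate 3 or without B-K562 replicate 3. IFI27, a mitochondrial and nuclear membrane protein (chr14:94110733-94116699), read 243, 98 and 94 in V-K562, 14, 12 and 13 in B-K562, and 106, 134 and 139 in G-K562. It was low in B-K562 in every library, whereas V-K562 and G-K562 overlapped. On chromosome 14 beyond 70 Mb, the middle log2 fold change against V-K562 over 200 genes tested was 0.62 in G-K562, and over 192 genes it was 0.01 in B-K562. The part of this shift in the values of IFI27 was not tested. The IFI27 log2 fold change in B-K562 was −3.24 ± 0.30 (limma adjusted p = 3.13e-07) and −2.79 without V-K562 replicate 1, and in G-K562 −0.09 ± 0.29 with the library and 0.35 without it. IFI6, an inhibitor of apoptosis, read 346, 221 and 301 in V-K562, 99, 73 and 67 in B-K562, and 125, 139 and 123 in G-K562. It fell in both lines (−1.84 and −1.16, and −1.70 and −1.02 without V-K562 replicate 1).

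The IFIT genes, some of whose proteins bind viral RNA ends, lie together on chromosome 10. IFIT2 read 64, 53 and 62 in V-K562, 23, 23 and 25 in B-K562, and 58, 65 and 66 in G-K562, so that B-K562 stood apart. IFIT3 read 193, 150 and 138 in V-K562, 100, 99 and 122 in B-K562, and 324, 311 and 384 in G-K562. It rose in G-K562 (1.06 ± 0.14, limma adjusted p = 3.27e-05), a call lost without V-K562 replicate 3 (0.96) or G-K562 replicate 3 (0.97), and its value in B-K562 was −0.57 ± 0.14. IFIT1 was low, with 13, 14 and 12 in B-K562 and 15, 18 and 21 in G-K562, and its log2 fold change in B-K562 was −0.94 ± 0.36 with V-K562 replicate 1 and −0.49 without it. IFIT5 was the lowest of the family, at 13, 5 and 8 in V-K562 and 27, 20 and 12 in G-K562; it rose in G-K562 (1.08 ± 0.40) but not when V-K562 replicate 2 or 3, or G-K562 replicate 1 or 2, was left out. IFI35 read 403, 351 and 379 in V-K562, 298, 282 and 252 in B-K562, and 632, 631 and 672 in G-K562, and G-K562 exceeded B-K562 by 1.19 ± 0.08. IFI30, a lysosomal thiol reductase, was at 1057 to 1420 in all 9 libraries with overlapping lines.

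Of the 3 RNA sensors, IFIH1 alone was called. IFIH1 (chr2:162267079-162318764), the sensor of long double-stranded RNA, read 222, 200 and 258 in V-K562, 34, 25 and 35 in B-K562, and 186, 155 and 189 in G-K562. All 3 B-K562 libraries were far below the rest. It fell in B-K562 (−2.82 ± 0.16, limma adjusted p = 2.76e-09), and G-K562 exceeded B-K562 by 2.44 ± 0.15. DDX58, the sensor of short RNA with a triphosphate end, had the opposite sign in B-K562, with 77, 71 and 62 in V-K562, 102, 100 and 88 in B-K562, and 111, 122 and 141 in G-K562, but its log2 fold changes of 0.46 and 0.80 stayed under 2-fold. DDX60, a related helicase, read 46, 34 and 60 in V-K562, 31, 34 and 48 in B-K562, and 49, 43 and 48 in G-K562, with all lines overlapping.

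In the ISG15 system 2 of 3 members tested, USP18 and HERC6, fell in B-K562 (14.1% of all genes). In G-K562, 1 of 3 fell (10.3% of all genes). ISG15 was not called, and HERC5, the ligase of ISG15, was too low to test (at most 7). ISG15 itself read 481, 406 and 439 in V-K562, 410, 398 and 424 in B-K562, and 415, 440 and 486 in G-K562, with overlapping lines and log2 fold changes of −0.10 ± 0.08 and −0.01 ± 0.09. USP18, which removes ISG15 from proteins and restrains the receptor (chr22:18149959-18177397), read 137, 121 and 132 in V-K562, 57, 59 and 51 in B-K562, and 11, 15 and 16 in G-K562. The 3 lines were stepwise apart. It fell in B-K562 (−1.21 ± 0.13, limma adjusted p = 1.77e-06) and in G-K562 (−3.16 ± 0.19, limma adjusted p = 7.98e-08), and was lower in G-K562 than in B-K562 by direct test (−1.95 ± 0.18). USP18 has near-identical copies on chromosome 22, so its counts are uncertain. HERC6, a ligase of the HERC family, read 97, 108 and 117 in V-K562, 30, 26 and 20 in B-K562, and 71, 53 and 70 in G-K562, and it fell in B-K562 (−2.05 ± 0.18), with −0.75 ± 0.16 and no call in G-K562.

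The OAS, MX and other effectors had 5 of 10 members falling in B-K562 (14.1% of all genes). In G-K562, 4 fell and 3 rose (10.3% and 8.81% of all genes). EPSTI1, known from epithelial and stromal cells, read 34, 36 and 57 in V-K562, 6, 2 and 1 in B-K562, and 4, 2 and 3 in G-K562. Both BASP1 lines were close to 0, and the fitted values of −3.60 ± 0.44 and −3.47 ± 0.33 rest on these low values. Without any 1 of the V-K562 libraries the gene did not pass the filter. ISG20, a 3′ exonuclease of RNA, read 135, 111 and 130 in V-K562, 34, 31 and 19 in B-K562, and 32, 31 and 21 in G-K562. It fell in both (−2.16 ± 0.21 and −2.17 ± 0.19), and the direct difference of G-K562 from B-K562 was −0.01 ± 0.23. MX1, a dynamin-like GTPase that traps viral components, read 81, 11 and 16 in V-K562, 6, 6 and 5 in B-K562, and 23, 13 and 19 in G-K562. Its fall in B-K562 (−1.94 ± 0.55, limma adjusted p = 0.0058) includes the high V-K562 replicate 1, and without any 1 of the V-K562 libraries the gene did not pass the filter.

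MX2, the paralog of MX1 next to it on chromosome 21 (chr21:41361986-41408943), went another way. It read 252, 278 and 299 in V-K562, 221, 225 and 241 in B-K562, and 48, 41 and 49 in G-K562. It fell in G-K562 (−2.59 ± 0.13, limma adjusted p = 2.26e-08), and its value in B-K562 was −0.27 ± 0.09. SAMD9L, a growth-restraining antiviral factor, read 98, 98 and 75 in V-K562, 73, 72 and 79 in B-K562, and 26, 17 and 24 in G-K562, and fell in G-K562 (−2.01 ± 0.21). Its neighbour and paralog SAMD9 read 277, 296 and 232, 318, 331 and 342, and 294, 213 and 314 in the same order of lines, with no call. OAS3, an oligoadenylate synthetase that activates RNase L, read 374, 373 and 431 in V-K562, 193, 189 and 201 in B-K562, and 338, 243 and 311 in G-K562. It fell in B-K562 (−1.01 ± 0.09), at the 2-fold limit, and was no longer called without V-K562 replicate 3 or B-K562 replicate 2.

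RSAD2 (viperin, chr2:6865840-6898232) and CMPK2 (chr2:6840553-6866635), which together make and act on a chain-ending nucleotide, are transcribed away from each other from overlapping outermost starts. RSAD2 also has an inner RefSeq promoter window (chr2:6877527-6877776), which holds 1 match to the response element core. RSAD2 read 51, 69 and 80 in V-K562, 43, 46 and 50 in B-K562, and 288, 316 and 352 in G-K562. CMPK2 read 457, 461 and 494, then 478, 474 and 453, and 1373, 1412 and 1570. Both stood clearly higher in all G-K562 libraries, rising by 2.24 ± 0.16 (limma adjusted p = 3.1e-07) and 1.60 ± 0.08 (limma adjusted p = 1.19e-08). In B-K562 their log2 fold changes were −0.49 ± 0.19 and −0.01 ± 0.07. XAF1, a proapoptotic partner of XIAP, read 34, 16 and 36 in V-K562, 15, 13 and 11 in B-K562, and 86, 70 and 84 in G-K562. It rose in G-K562 by 1.50 ± 0.28, and its fall in B-K562 (−1.01 ± 0.32) was not called without V-K562 replicate 1 (−0.85), V-K562 replicate 3 or B-K562 replicate 3.

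Among the membrane and secreted proteins, LGALS3BP was the 1 of 5 called against V-K562. Of all genes, 14.1% fell in B-K562 and 8.81% rose in G-K562. LGALS3BP, a secreted galectin-binding glycoprotein (chr17:78971253-78979979), read 740, 755 and 954 in V-K562, 296, 303 and 294 in B-K562, and 1937, 1808 and 2185 in G-K562. The lines did not overlap, and it fell in B-K562 (−1.44 ± 0.09, limma adjusted p = 7.46e-09) and rose in G-K562 (1.26 ± 0.10, limma adjusted p = 8.79e-07). BST2 (tetherin), which holds budding virions at the surface, read 2937, 2866 and 2802 in V-K562, 2439, 2583 and 2525 in B-K562, and 5388, 5539 and 5998 in G-K562. G-K562 exceeded B-K562 by 1.14 ± 0.05, while its value against V-K562 was 0.95 ± 0.06. IFITM1, IFITM2 and IFITM3, which block membrane fusion, are closely related neighbours on chromosome 11, so reads shared between them can make their counts uncertain. IFITM1 ranged over 7094 to 7875 (V-K562), 9653 to 10210 (B-K562) and 13105 to 13672 (G-K562), whereas IFITM2 read 2266, 1917 and 1895, then 2139, 1974 and 1902, and 2878, 2961 and 2721 in the same order of lines. IFITM3 read 3164, 2963 and 2861 in V-K562, 1830, 1797 and 1785 in B-K562, and 3458, 3301 and 3142 in G-K562. None of the 3 passed 2-fold in any comparison, and in B-K562 IFITM1 (0.40) and IFITM3 (−0.73) had opposite signs.

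PARP14, PARP9 and PARP12 belong to the ADP-ribosyltransferases, and TRIM22 and TRIM25 are ubiquitin ligases. PARP14 read 1380, 1561 and 1580 in V-K562, 698, 750 and 823 in B-K562, and 2671, 2264 and 2756 in G-K562. The lines did not overlap, and its log2 fold change in B-K562, −0.99 ± 0.07, lay just inside 2-fold. In G-K562 it was 0.74 ± 0.08, or 1.67-fold. G-K562 was higher than B-K562 by 1.73 ± 0.08 (limma adjusted p = 1.46e-10). TRIM22 read 65, 71 and 93 in V-K562, 30, 26 and 35 in B-K562, and 47, 61 and 67 in G-K562, and it fell in B-K562 (−1.30 ± 0.19). TRIM25, which activates DDX58, ranged over 5966 to 6684, 4087 to 4156 and 4921 to 5479 in the 3 lines, with log2 fold changes of −0.62 and −0.29. PARP9 and PARP12 ranged from −0.62 to 0.31 against V-K562.

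The immunoproteasome subunits PSMB8 and PSMB9, which lie together in the major histocompatibility complex on chromosome 6, both fell in B-K562 (14.1% of all genes). PSMB8 (chr6:32840717-32844935) read 244, 231 and 272 in V-K562, 44, 34 and 34 in B-K562, and 455, 471 and 477 in G-K562. Its log2 fold change in B-K562 was −2.71 ± 0.14 (limma adjusted p = 1.17e-09), and its value in G-K562 was 0.89 ± 0.09. PSMB9 (chr6:32854161-32859851) read 125, 111 and 114 in V-K562, 51, 54 and 49 in B-K562, and 431, 474 and 411 in G-K562. With −1.17 ± 0.13 in B-K562 it fell, and it rose in G-K562 (1.88 ± 0.10). G-K562 exceeded B-K562 by 3.60 ± 0.12 for PSMB8 and 3.05 ± 0.11 for PSMB9. PSMB8 has an antisense gene, and whether the counting used strand is not given in the sources used here. The nuclear body proteins PML, SP100 and SP110 were not called in any comparison, with log2 fold changes between −0.14 and 0.23 against V-K562.

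Of the 5 IRF genes analysed, 1 fell in B-K562 and 1 rose in G-K562 (14.1% and 8.81% of all genes did so). IRF7 (chr11:612553-615999), the master factor of interferon alpha induction, read 337, 356 and 451 in V-K562, 184, 199 and 183 in B-K562, and 694, 644 and 702 in G-K562. It fell in B-K562 to 0.50 of the control level (limma adjusted p = 1.62e-06), just at the 2-fold limit, and was not called without V-K562 replicate 3, B-K562 replicate 1 or B-K562 replicate 3. In G-K562 it was 0.82 ± 0.11, and G-K562 was higher than B-K562 by 1.82 ± 0.10. IRF1 (chr5:132481609-132490777), an activator induced above all by interferon gamma, read 671, 695 and 720 in V-K562, 488, 463 and 488 in B-K562, and 1351, 1464 and 1548 in G-K562. The lines did not overlap, and IRF1 rose in G-K562 by 1.04 ± 0.07 (limma adjusted p = 2.13e-07), a call that was lost without G-K562 replicate 3 (0.99); in B-K562 it was −0.53 ± 0.06. IRF1 too has an antisense gene. IRF3, the factor activated by RNA and DNA sensors, read 2002, 1766 and 1953 in V-K562, 2169, 2405 and 2353 in B-K562, and 2734, 2877 and 2901 in G-K562, with 0.28 ± 0.06 and 0.55 ± 0.06. IRF9, the DNA-binding part of the STAT complex, read 328, 347 and 358, 220, 214 and 245, and 297, 312 and 400, with −0.60 ± 0.09 and −0.07 ± 0.12. IRF2, an antagonist of IRF1, read 416, 474 and 467, 366, 377 and 378, and 462, 403 and 440, with −0.27 and −0.08. IRF5 (at most 4) and IRF8 (at most 2) were at the floor in all libraries.

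Levels are compared between genes per kb of merged exon length. In V-K562 the mean value per kb was highest for IFITM1 (10504), IFITM3 (4485), BST2 (2815) and IFITM2 (2775), followed by TRIM25 (1107), IFI30 (1093) and IRF3 (720), and lowest among analysed members for IFIT5 (2.15), XAF1 (4.35) and IFIT1 (6.13). The membrane proteins kept this lead in the BASP1 lines, with 13811 per kb for IFITM1 in B-K562 and 18606 in G-K562. IFI16 moved from 64.8 per kb in V-K562 and 31.4 in B-K562 to 734 in G-K562.

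The rest of the pathway was read from gene lists beside the 53 members. All 22 interferon ligand genes were at 2 or less in every library, and none was tested. Of 14 receptor and signalling genes, 13 were tested: in B-K562 SOCS1, a feedback inhibitor of JAK kinases, fell (127, 113 and 147 to 59, 38 and 49, −1.40 ± 0.17), and 0 rose. Of all genes tested, 14.1% fell and 6.46% rose. At an unadjusted limma p under 0.05, 10 of the 13 were lower and 3 higher, where 37.9% and 39.4% of all genes were. In G-K562 against V-K562, limma called 0, with 2 lower and 7 higher at an unadjusted p under 0.05 (34.7% and 35.1% of all genes). Against B-K562, G-K562 was higher for SOCS1 (2.02), IFNGR2 (1.14) and SOCS3 (1.08), 3 of 13 tested, where 17.4% of all genes were. STAT2 read 3003, 3238 and 3369 in V-K562, 2066, 2240 and 2228 in B-K562, and 4411, 3791 and 4697 in G-K562, and was not past 2-fold against V-K562. Of the sensing genes, DHX58 (−2.50) and AIM2 (−1.73) fell in B-K562, 2 of 12 tested, a share near that of all genes (14.1%), while the median of the 12 was 0.13. In G-K562, TMEM173 (STING, 1.84) and AIM2 (1.96) rose, 2 of 13, against 8.81% of all genes. TMEM173 read 2514, 2426 and 2435 in V-K562, 2155, 2317 and 2298 in B-K562, and 8847, 8380 and 9677 in G-K562. Of 4 other IRF family genes and partners tested, 1 fell in B-K562 (−3.80), where 14.1% of all genes fell. In G-K562, 1 of the 4 rose (8.81% of all genes): IRF2BPL, a partner of IRF2 (1.92 ± 0.09). Against B-K562, 3 of the 4 were higher in G-K562 (17.4% of all genes).

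Among 41 other interferon-stimulated genes, 13 of 37 tested fell and 0 rose in B-K562 (median −0.67), against 14.1% and 6.46% of all genes. At an unadjusted p under 0.05, limma gave 23 as lower and 8 as higher, where 37.9% and 39.4% of all genes were. In G-K562, 4 of 39 fell, a share near the 10.3% of all genes, and 10 rose, against 8.81% (median 0.21). G-K562 was higher than B-K562 for 16 and lower for 2 (median 0.76), against 17.4% and 12.5% of all genes. SLFN5, HELZ2, APOL1 and APOL6 fell in B-K562 and rose in G-K562. CXCL10, the chemokine of activated T cells, read 20, 4 and 9 in V-K562, 2, 1 and 2 in B-K562, and 293, 360 and 262 in G-K562, and rose in G-K562 by 4.90 ± 0.40. CXCL11, the neighbouring chemokine, read 212, 206 and 274 in V-K562, 96, 81 and 85 in B-K562, and 38, 64 and 36 in G-K562, falling in both. TAP1, the peptide transporter encoded beside PSMB9, read 594, 637 and 644 in V-K562, 267, 250 and 265 in B-K562, and 989, 922 and 971 in G-K562, and fell in B-K562 (−1.26 ± 0.07).

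ATAC-seq was read as the highest summit pileup, the number of overlapping fragments at the top of a peak, in regions merged over the 9 libraries. Of 85547 regions, 119 lay within 5 kb of 49 members, and 47 of these had a peak in all 9 libraries. The 119 include regions of members not analysed in RNA-seq, and 111 lay within 5 kb of 44 analysed members. Pileups are printed as deposited; the tests used pileups scaled between libraries, with a missing peak set to 17, so a fold change against a line without peaks is no bound. In B-K562, 7 of 78 regions tested closed and 2 opened against V-K562, where 6.16% and 1.53% of all regions did so. Of the 7, 5 had no peak in B-K562 and entered the test only through V-K562, so they could be tested only as closed. With a peak required in every library, 2 closed in B-K562 and 6 in G-K562. In G-K562, 12 of 81 closed and 0 opened, against 13.1% and 2.86%; at an unadjusted p under 0.05 limma gave 21 as less and 22 as more accessible, 1 of the 22 by 2-fold, where 30.4% and 20.1% of all regions were. Against B-K562, 7 of 87 closed and 4 opened in G-K562, against 8.6% and 4.28%. These shares lie near those of all regions. Near analysed members alone, 6 of 75 closed and 1 opened in B-K562, and 12 of 76 closed and 0 opened in G-K562. Against B-K562, 6 of 80 closed and 4 opened in G-K562 near these members. The opened count depends on the scaling: without it, 9 regions opened and 8 closed in G-K562 against V-K562, while over all regions the calls went from 7127 closed and 1552 opened to 4594 and 4323. In B-K562 the same step changed the calls over all regions from 3214 and 797 to 2311 and 1186.

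Regions at the starts of analysed members, within 500 bp of the outermost annotated gene start, showed few calls at 2-fold or more. There were 38 such regions at 37 members, and 27 had a peak in all 9 libraries. In B-K562 1 of 33 tested closed (6.16% of all regions). In G-K562 limma called 0 of 34 against V-K562. At an unadjusted p under 0.05 limma gave 2 as less and 14 as more accessible (30.4% and 20.1% of all regions). Against B-K562, 2 of 34 opened in G-K562 (4.28%). With no fold criterion, 2 closed and 0 opened in B-K562 (16.6% and 8.57% of all regions), and 1 closed and 10 opened in G-K562 (26.0% and 15.9%). Against B-K562, 1 closed and 12 opened in G-K562 (15.6% and 12.3%). The medians were −0.09, 0.31 and 0.30, against −0.06, −0.10 and 0.00 over all regions.

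**Figure D4:**
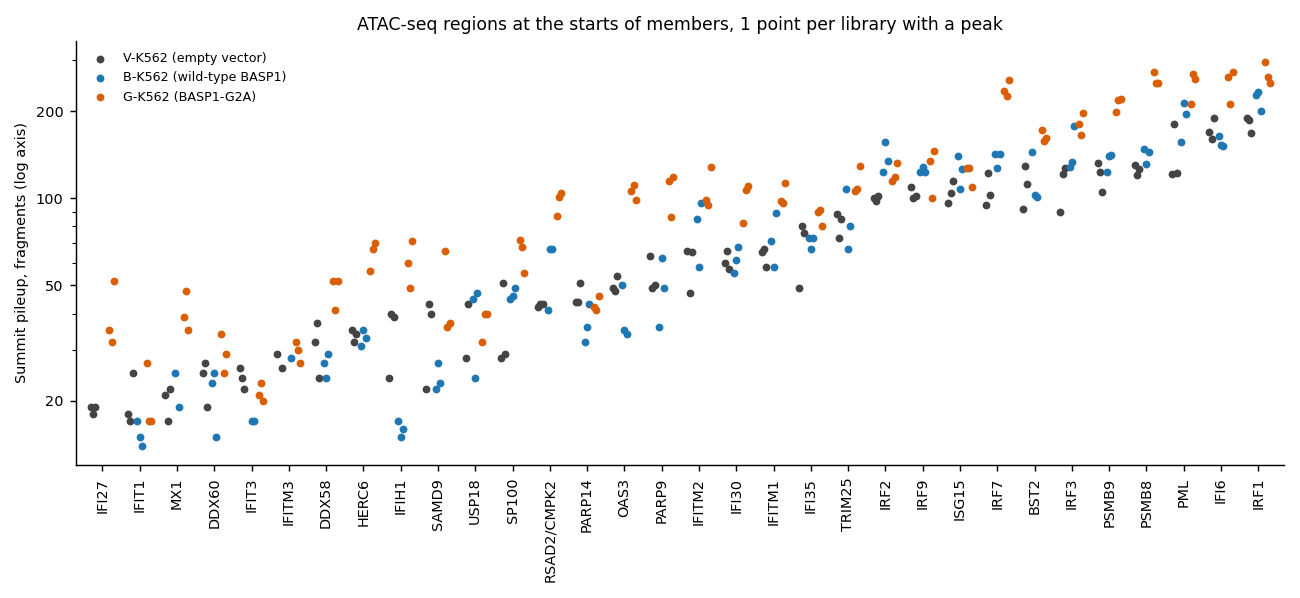
Summit pileups (log axis, as deposited) of the 32 start regions that had peaks in 6 or more of the 9 libraries, ordered by their mean in V-K562, with 1 point per library that had a peak. IFIH1 falls to 15 to 17 in B-K562, and IFI27 has no point for B-K562.

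The start region of IFIH1 (chr2:162318415-162319006, over the first exon and the matches shown above) was the single one called as closed in B-K562. It had summits of 24, 40 and 39 in V-K562, 17, 15 and 16 in B-K562, and 60, 49 and 71 in G-K562. B-K562 lay below both other lines, with −1.01 ± 0.21 against V-K562 (limma adjusted p = 0.012). That closing lies at the 2-fold limit and was not called without V-K562 replicate 2 (−0.91) or 3 (−0.92), or without any 1 of the B-K562 libraries (−0.99 each). G-K562 was higher than B-K562 by 1.55 ± 0.23 (limma adjusted p = 0.00072). The start region of OAS3 (chr12:112938164-112938654) had 49, 48 and 54 in V-K562, 50, 35 and 34 in B-K562, and 106, 111 and 99 in G-K562, and was more accessible in G-K562 than in B-K562 by 1.19 ± 0.16. OAS3 RNA differed there by 0.57 ± 0.11, which was not called. The start region of IFI27 (chr14:94110513-94110941) had 19, 18 and 19 in V-K562, no peak in B-K562, and 35, 32 and 52 in G-K562; near the lower limit of peak calling, it was not called. PSMB8 (130, 120 and 126, 148, 131 and 144, then 274, 251 and 251) and PSMB9 (132, 123 and 105, 123, 140 and 141, then 198, 218 and 221) had open start regions of like height in V-K562 and B-K562, with log2 fold changes of 0.02 for both, while their RNA fell in B-K562. The IRF7 start region read 95, 122 and 103 in V-K562, 142, 127 and 142 in B-K562, and 235, 226 and 257 in G-K562, with 0.21 and 0.81 against V-K562.

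Calls away from the outermost starts lay mostly in introns. IFI16 had a region in an intron (chr1:159015482-159015863) with 34, 26 and 33 in V-K562, no peak, 23 and 21 in B-K562, and 82, 64 and 54 in G-K562, and another over an exon (chr1:159009742-159010143) with 30, 38 and 26, none, and 48, 46 and 50. The exon region overlaps the end of a RefSeq promoter window of IFI16 (chr1:159009657-159009906), and so covers an inner start of the gene. Both were more accessible in G-K562 than in B-K562, by 1.44 ± 0.23 and 1.25 ± 0.18, and IFI16 RNA differed in the same direction. RSAD2 and CMPK2 showed the reverse. The region at their overlapping outermost starts read 42, 43 and 43 in V-K562, 41, 67 and 67 in B-K562, and 87, 101 and 104 in G-K562 (0.82 ± 0.13 against V-K562). No called region overlaps the inner RSAD2 promoter window (chr2:6877527-6877776). Intronic regions of both genes closed in G-K562. In RSAD2 these were chr2:6887644-6888123 (163, 174 and 166 in V-K562, 117, 96 and 139 in B-K562, 72, 63 and 68 in G-K562) and chr2:6893813-6894299 (223, 224 and 204, then 204, 175 and 174, then 67, 48 and 41). In CMPK2 it was chr2:6847108-6847786 (112, 154 and 104, 113, 117 and 101, and 52, 20 and 56). Their log2 fold changes in G-K562 were −1.65, −2.42 and −1.96, in genes whose RNA rose in G-K562.

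USP18 had a region upstream of its start (chr22:18146013-18146359) with peaks of 50, 46 and 52 in V-K562 and none in either BASP1 line, and it closed in both. The same pattern held in an intron of LGALS3BP (chr17:78974943-78975305; 35, 42 and 35 in V-K562 only) and an intron of PSMB9 (chr6:32857604-32857876; 37, 52 and 44 in V-K562 only). These 3 regions met the requirement of 3 peaks only through V-K562, so they could be tested only as closed. USP18 RNA fell in both lines, whereas LGALS3BP and PSMB9 RNA rose in G-K562. IRF2, whose RNA was not called, had 3 regions that closed in G-K562, downstream (chr4:184386292-184386795, 79, 84 and 85 in V-K562, 58, 64 and 60 in B-K562, 1 peak of 19 in G-K562) and in introns (chr4:184417884-184418258 and chr4:184451713-184452164). The first intronic region had peaks of 32, 46 and 35 in V-K562, none in B-K562, where it also closed, and 1 of 24 in G-K562. For B-K562 against V-K562 this region met the requirement only through V-K562. The second read 63, 77 and 70, then 57, 52 and 42, and 43, 42 and 34. The median log2 fold change of genes within 2 Mb of IRF2 was −0.78 in G-K562. In PARP12 and TRIM25, introns (chr7:140054165-140054534, chr7:140060740-140061175 and chr17:56910186-56910552) closed in G-K562, and upstream of TRIM25 chr17:56915839-56916164 closed in B-K562 (55, 47 and 51 in V-K562, no peak in B-K562, 53 and 43 in 2 of the G-K562 libraries). In these comparisons chr7:140060740-140061175 and the region upstream of TRIM25 also met the requirement only through V-K562. The TRIM25 intron read 87, 79 and 77 in V-K562, 71, 65 and 69 in B-K562, and 61, 46 and 44 in G-K562, and its call was lost without V-K562 replicate 1 (−0.98) or G-K562 replicate 2 (−0.98) or 3 (−0.91). PML gained an intronic region in B-K562 alone (chr15:74039262-74039679, with 53, 37 and 49), which met the requirement only through B-K562. A region in OASL closed in B-K562 (chr12:121026269-121026758, with 55, 70 and 101 in V-K562 and 36, 33 and 33 in B-K562). Downstream of OASL, a region that lies closer to another gene opened in B-K562 (chr12:121018196-121018562, with 56, 65 and 72). The log2 fold change of that region was 1.80 without V-K562 replicate 1 and 1.25 without replicate 2 or 3. The RNA of OASL was at 3 or less in B-K562. Regions in IFI35 (chr17:43011727-43012119) and PARP14 (chr3:122730212-122730602) were less accessible in G-K562 than in B-K562. The IFI35 region had peaks in B-K562 alone (36, 30 and 40) and lost its call without any 1 of the B-K562 or G-K562 libraries, and the PARP14 region had 32, 23 and 26 in V-K562, 50, 40 and 43 in B-K562, and none in G-K562.

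Members with and without calls held the response element core. It was held by 9 of 13 members with a window that fell in B-K562 and by 12 of 22 that were not called there, by 4 of 9 that rose in G-K562 and by 15 of 23 that were not called. IFIH1, with 3 matches before its start, fell in B-K562, and ISG15, with 2, was not called in any comparison. IRF1, with none in its window, rose in G-K562. By role, the core was held by 4 of 4 membrane and secreted proteins, 7 of 10 IFIT and IFI genes, 0 of 4 IRF genes and 0 of 2 nuclear body genes with a window. Windows were missing for IFIT2, MX2, OAS2, OASL, IFITM2, USP18, TRIM22, IRF2, IRF3, IRF7 and PML.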

How the data were processed

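RNA-seq (TruSeq Stranded mRNA) and ATAC-seq were measured in the 3 K562 lines, with 3 libraries per line and assay (18 samples). For RNA-seq the authors aligned reads with STAR to GRCh38, removed duplicates, counted unique reads over RefSeq genes with Subread and divided them by DESeq2 size factors; the deposited values are these normalized scores, rounded, 1 table per BASP1 line. These values do not give read depth, which limits the precision that can be stated. For ATAC-seq the authors aligned with BWA-MEM, reduced all libraries to the same tag number, and used MACS2 on each library to call peaks; the deposited signal is the summit pileup of each peak. Columns with the authors' fold changes and p-values were not used. The authors' processing notes name GRCh38, Subread, MACS2 and DESeq2.

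Values were tested as log2(value + 1) with limma 3.58.1 in R 4.3.3 (trend, two-sided, Benjamini-Hochberg over all genes or regions), after requiring 10 or more in at least 3 libraries compared, or a peak in at least 3; calls needed an adjusted p of at most 0.05 and a change of 2-fold or more. The fold changes on this scale understate changes of low genes. For G-K562 against B-K562, B-K562 values were multiplied by 1.02. Overlapping peaks were merged, scaled by a trimmed mean of ratios, with 17, the 5th percentile of summit pileups, in place of lower or missing values. The fits were tested on simulated data. Alternatives were the pseudocount, the filter, scaling, floor, window, fold criterion, a replicate block and leaving out each library. Same-numbered libraries did not deviate together (correlations −0.10 to 0.15). All 53 members may be named; values in every library are given for called members, IRF genes and members with opposite signs in the BASP1 lines, up to 10 per direction and comparison. Members, lists and tests were chosen with earlier results of these data known.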

Additional observations from a re-analysis of the deposited data

Results flagged for a closer look

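B-K562 and G-K562 were called in opposite directions against V-K562 for 4 members. The fit of all 9 libraries also gives their difference between G-K562 and B-K562. Since the members were picked by those opposite calls, a large difference follows from the selection and is no separate support. The log2 difference was 4.50 for IFI16, 2.51 for XAF1, 2.70 for LGALS3BP and 3.05 for PSMB9, with the 3 G-K562 values above the 3 B-K562 values for each gene. The falls of IFI16 and XAF1 in B-K562 lay at the 2-fold limit, and both were lost with a pseudocount of 5. With quantile normalization IFI16, XAF1 and PSMB9 were no longer called in B-K562. The cause of the opposite directions was not tested. With 3 libraries per line, no formal outlier test was run. By the rule used for V-K562 replicate 1 (10 or more and over 3 times both other libraries), that library stood apart in 103 genes (0.664%). B-K562 replicate 1 did so in 95 genes (0.641%), with 0 members among them. Every other library had at most 15 such genes.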

How the results depend on the processing

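Of 190 recomputed counts of called members or regions, 157 stayed within 1.5 times the reported value and 33 did not. With no fold criterion, RNA-seq gave 31 lower and 4 higher members in B-K562 (37.2% and 38.6% of all genes), 10 lower and 19 higher in G-K562 (33.3% and 33.5%), and 4 lower and 32 higher in G-K562 against B-K562 (40.5% and 38.1%); ATAC-seq gave 18 closed and 4 opened regions in B-K562 (16.6% and 8.57% of all regions), 17 closed and 15 opened in G-K562 (26.0% and 15.9%), and 13 closed and 17 opened in G-K562 against B-K562 (15.6% and 12.3%). Quantile normalization left 9 lower members in B-K562, 8 of the 17 and PARP14, and moved the split over all genes from 2109 lower and 967 higher to 1554 and 1426. Requiring a peak in every library left 2 closed and 0 opened regions in B-K562, 6 closed in G-K562, and 2 closed and 2 opened in G-K562 against B-K562. Regions opened in G-K562, 0 as reported, were 9 without scaling, 2 with scaling within GC bins, 1 with the lowest floor, 1 within 10 kb and 1 with the replicate block; opened in G-K562 against B-K562, 4 as reported, became 7 without scaling and 8 with the lowest floor, and opened in B-K562, 2 as reported, became 1 with the member as closest gene. Without scaling the median over all regions shifted by 0.12 in B-K562, 0.28 in G-K562 and 0.12 between them. GC-bin scaling changed the whole split to 2272 closed and 936 opened in B-K562.

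Leaving out 1 library gave 12 to 16 lower and 0 higher members in B-K562, 5 to 6 lower and 7 to 9 higher in G-K562, and 3 lower and 18 to 19 higher in G-K562 against B-K562. For regions it gave 1 to 6 closed and 1 to 2 opened in B-K562, 7 to 13 closed and 0 to 3 opened in G-K562, and 5 to 7 closed and 4 to 7 opened in G-K562 against B-K562. Closed regions in B-K562 were 2, 1 and 1 without V-K562 replicates 1, 2 and 3, since the 5 regions without a peak in B-K562 then fail the requirement of 3 peaks; the IFIH1 start region, which lay at the 2-fold limit, also lost its call without replicate 2 or 3. Of 54 called member values, 39 kept the call under every alternative that tested them, 15 lost it under at least 1, and 0 changed direction. Same-numbered libraries share only a number; with the replicate block the RNA-seq counts were 17 and 0, 6 and 9, and 3 and 19. The values used here do not give read depth, so values under about 10 have no stated precision.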
